A study of Mus musculus with 7 samples.

Results

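Siglecs are cell surface lectins of the immunoglobulin superfamily that bind sialic acid, the acidic sugar at the tips of many glycans. Siglec genes were taken as every probe set whose symbol in the array annotation is 1 of 8 listed family members, which gave 9 probe sets for 8 genes, of 18226 genes and 35557 probe sets in all. The members are Siglecf (under its older array symbol Siglec5), Siglecg, Cd33, Siglece, Siglec1, Cd22, Siglech and Mag. RNA was measured on 1 mouse gene 1.0 ST array a library, in eosinophils that had been sorted from the lungs of BALB/c mice challenged with OVA, the egg white allergen ovalbumin (n = 3 libraries), or with saline (n = 4 libraries). All 7 libraries share strain, tissue, cell type and amplification protocol. Age, sex, dosing, the antibodies of the sort and whether a library is 1 animal or a pool are not given in the sources used here, so p-values measure the spread between these libraries, which may be technical. A second deposited table holds the same 7 sets of values under running numbers, and only 2 of the 7 stand in the order of the sample numbers in the labels. Read as sample numbers, the running numbers would put saline 3 and 4 with OVA 3. Groups here follow the sample titles of the value table, and every difference rests on those titles.

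Most Siglecs of the CD33-related branch carry tyrosine motifs in their tails that recruit the phosphatase SHP-1 (Ptpn6) and damp activating signals, and in the mouse their genes lie together on chromosome 7. Siglec-F marks mouse eosinophils and alveolar macrophages, and its crosslinking can lead eosinophils into apoptosis. Siglec-G restrains B-1 cells, Siglec-E is found on neutrophils, monocytes and macrophages, and CD33 on myeloid cells. The others are known from other cells: CD22 as the B cell Siglec, sialoadhesin (Siglec1) from tissue macrophages, Siglec-H from plasmacytoid dendritic cells and Mag from myelin.

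Levels below are log2 values after robust multi-array averaging (RMA), and differences are OVA minus saline on the same log2 scale. Of 18226 genes, 962 were called higher in OVA (5.28%) and 213 lower (1.17%) by limma, with the Benjamini-Hochberg adjusted p held under 0.05, so 81.9% of calls were higher. When the values were quantile normalized again, 955 genes were higher and 431 lower, or 68.9% higher. Other splits that moved by over 10 percentage points were 70.8% with array weights and 66.9% and 68.8% with saline 1 and 2 or saline 3 and 4 left out. The median difference of all genes was -0.07. The median of 5222 negative control probe sets was 6.09 ± 0.07 in OVA (SD, n = 3) and 5.91 ± 0.04 in saline (SD, n = 4), a difference with a two-sided exact permutation p of 0.02857, the smallest that 35 splits allow. Most eosinophil markers were bright. Ccr3, the eotaxin receptor, lay between 11.75 and 11.97 in OVA and between 11.90 and 12.05 in saline libraries. In all 7 libraries, 9 of 10 eosinophil markers exceeded the upper quartile of the negative controls. The exception was Epx, eosinophil peroxidase, at 8.73, 9.52 and 9.53 in OVA 1 to 3, against 6.44, 6.62, 6.65 and 6.58 in saline 1 to 4, where it lay under that quartile.

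Siglecf, Siglecg and Cd33 rose in eosinophils from OVA challenged lungs, and no listed Siglec fell. Each of the 3 was higher in every OVA library than in any saline library, a pattern that 11% of all genes shared. By limma, 3 of 8 Siglec genes were called higher, against 5.28% of all genes. None of the 9 probe sets lay wholly below saline in OVA, as 8.63% of all genes did. The median difference of the 8 genes was 0.19 with Siglece taken from its RefSeq mRNA probe set and 0.02 with Siglece taken from its brighter probe set, against -0.07 over all genes. Because these are bulk samples of sorted cells, a change in the mix of cells and a change of RNA per cell cannot be told apart.

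**Figure D1:**
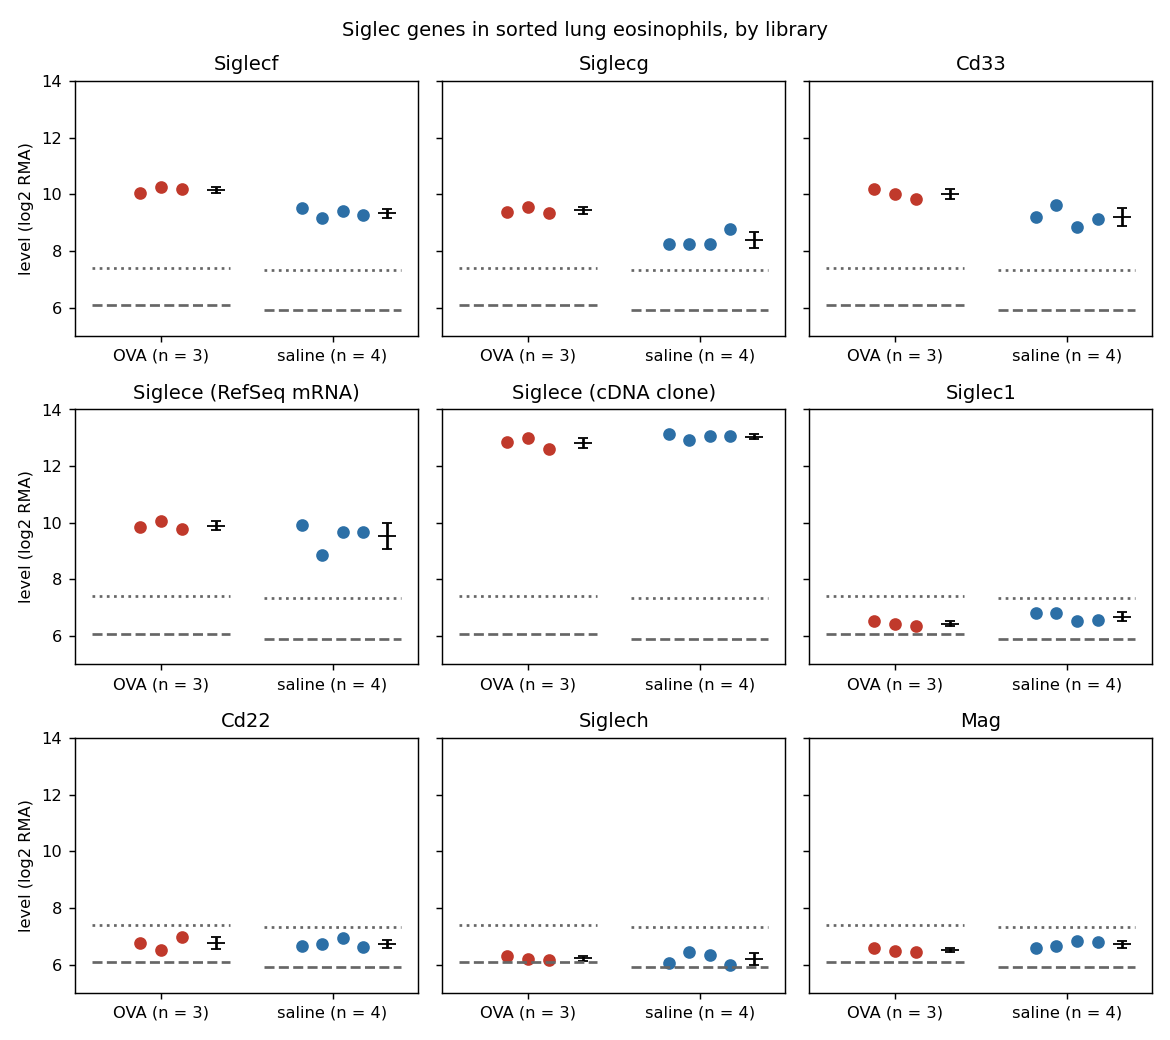
Levels of the 9 Siglec probe sets in each library (log2 RMA; points are libraries, bars mean ± SD, OVA n = 3 and saline n = 4); dashed and dotted lines are the group means of the negative control median and upper quartile. Siglecf, Siglecg and Cd33 have OVA points above all saline points, and Siglec1, Cd22, Siglech and Mag lie under the upper quartile of the negative controls in every library.

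Siglecf, the lectin by which mouse eosinophils are commonly recognised, read 10.05, 10.26 and 10.19 in OVA 1 to 3, against 9.51, 9.15, 9.42 and 9.27 in saline 1 to 4. The lowest OVA library stood 0.54 above the highest saline library. Mean levels were 10.17 ± 0.11 in OVA (SD, n = 3) and 9.34 ± 0.16 in saline (SD, n = 4). The difference of 0.83 (SE 0.12) corresponds to a 1.78-fold rise with a 95% interval of 1.48 to 2.14 (limma adjusted p = 0.00371). Among all genes, 96.95% had a smaller difference than Siglecf. The call held in 17 of 17 alternative settings, with adjusted p from 0.000401 to 0.0445.

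Siglecg had the largest difference of the 8 genes. Its levels were 9.38, 9.57 and 9.35 in OVA 1 to 3, against 8.25, 8.24, 8.25 and 8.79 in saline 1 to 4. Saline 1, 2 and 3 were nearly equal and saline 4 stood apart from them, yet 0.56 under the lowest OVA library. Means were 9.43 ± 0.12 in OVA (SD, n = 3) and 8.38 ± 0.27 in saline (SD, n = 4). The difference was 1.05 (SE 0.15), a 2.07-fold rise with a 95% interval of 1.63 to 2.63 (limma adjusted p = 0.00404). Without saline 4 it was 1.19 (adjusted p = 0.000494). The call was lost with ordinary per-gene variance in place of limma's moderation (adjusted p = 0.0717) and held in the other 16 alternatives.

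Cd33, the myeloid member that names the branch, rose as well, but its call held in fewer settings. It measured 10.18, 10.01 and 9.82 in OVA 1 to 3, against 9.19, 9.63, 8.83 and 9.13 in saline 1 to 4. The groups were parted by 0.19, and saline 2 came closest to the OVA libraries. The SD was 0.18 in OVA (n = 3) and 0.33 in saline (n = 4). The difference of 0.81 (SE 0.18) is a 1.75-fold rise with a 95% interval of 1.33 to 2.32 (limma adjusted p = 0.029). Cd33 was not called without OVA 1 (adjusted p = 0.112), OVA 2 (0.116), OVA 3 (0.0734) or saline 1 (0.072), nor when quantile normalized again (0.11) or with ordinary variance (0.167). It stayed higher by 0.59 to 1.02 in all 17 alternatives. The intervals of the folds of Siglecf, Siglecg and Cd33 overlap, and the differences between these folds were not tested.

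Siglece, a phosphatase-recruiting receptor of neutrophils and macrophages, had probe sets whose differences had opposite signs and were not called. Its RefSeq mRNA probe set gave 9.84, 10.07 and 9.79 in OVA 1 to 3, against 9.93, 8.87, 9.67 and 9.68 in saline 1 to 4. Only saline 2 was well under the rest, and the groups overlap. The difference was 0.36 (SE 0.23) with a 95% interval of -0.16 to 0.89 (limma adjusted p = 0.401 over 29011 probe sets, of which 4.05% were called). Without saline 2 the difference of this probe set was 0.14 (adjusted p = 0.595), and the member median of 0.19 rests in part on it. A brighter probe set with the same symbol rests on a macrophage cDNA clone described as unclassifiable. This clone probe set read 12.84, 12.99 and 12.62 in OVA 1 to 3, against 13.14, 12.94, 13.05 and 13.05 in saline 1 to 4, with a difference of -0.23 (SE 0.12, limma adjusted p = 0.293). Whether its signal belongs to Siglece mRNA was not tested. Neither was called in any alternative.

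**Figure D2:**
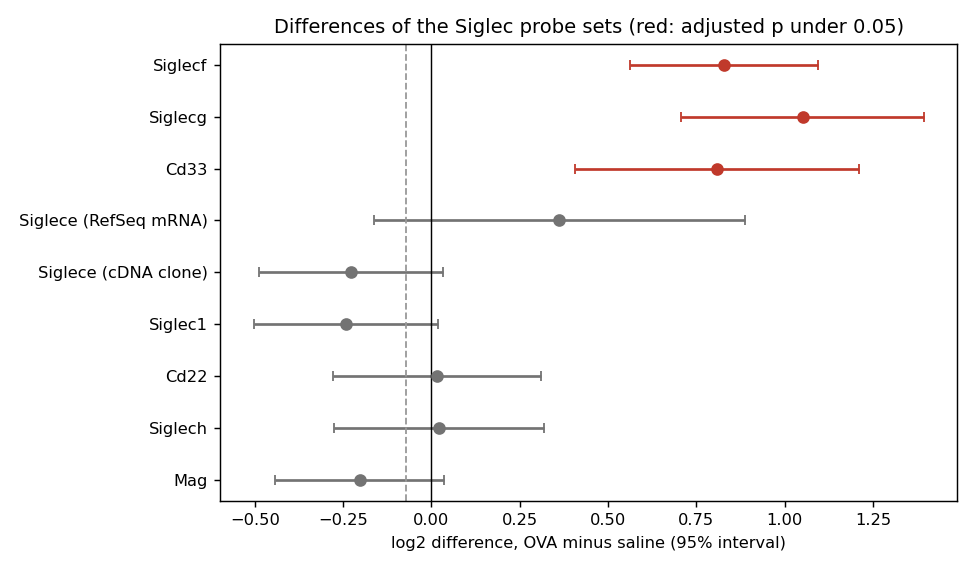
Log2 differences, OVA minus saline, of the 9 Siglec probe sets with 95% intervals from limma (3 OVA and 4 saline libraries); the dashed line is the median of all genes at -0.07. The intervals of Siglecf, Siglecg and Cd33 (red, adjusted p under 0.05) lie wholly above 0, and the other 6 cross 0.

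The members known from B cells, macrophages, plasmacytoid dendritic cells and myelin stayed near the level of the negative controls. In each library, Siglec1, Cd22, Siglech and Mag lay under the upper quartile of the negative control probe sets, which was 7.38 to 7.43 in OVA and 7.25 to 7.39 in saline. Cd22, the B cell inhibitory receptor, read 6.77, 6.53 and 6.96 in OVA 1 to 3, against 6.65, 6.74, 6.93 and 6.63 in saline 1 to 4. The difference of Cd22 was 0.02 with a 95% interval of -0.28 to 0.31 (limma adjusted p = 0.946). Siglech, which signals through the adaptor DAP12 (Tyrobp), gave 6.31, 6.19 and 6.16 in OVA 1 to 3, against 6.06, 6.43, 6.33 and 5.97 in saline 1 to 4. In OVA 3 it was just under the negative control median of that library, 6.17, and the difference was 0.02 with an interval of -0.27 to 0.32 (limma adjusted p = 0.924).

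Siglec1, a macrophage adhesion receptor without an inhibitory tail motif, had levels of 6.54, 6.42 and 6.36 in OVA 1 to 3, against 6.81, 6.82, 6.52 and 6.58 in saline 1 to 4. Saline 3 fell within the OVA range, and the difference of -0.24 had a 95% interval of -0.50 to 0.02 (limma adjusted p = 0.267). Mag, an axon-contact protein of myelin, read 6.60, 6.49 and 6.46 in OVA 1 to 3, against 6.57, 6.67, 6.83 and 6.81 in saline 1 to 4. The groups overlap, and the difference was -0.20 with an interval of -0.44 to 0.04 (limma adjusted p = 0.306). None of these 4 genes was called in any of 17 alternatives.

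On chromosome 7, the order of protein-coding genes (RefSeq table of assembly GRCm38.p6, used for order) runs Siglecf, Siglecg, then Cd33 and Siglece, with 13 other genes among them. The 3 that rose are thus the first of the 4 listed Siglecs in this order. Of the 13 others, 5 were measured under a matching name. Etfb, the beta chain of electron transfer flavoprotein, rose by 0.68 (limma adjusted p = 0.0323). The other 4 were not called: Lim2 differed by -0.16, Nkg7 by -0.13, Cldnd2 by -0.29 and Ceacam18 by 0.09.

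The 250 bases before the start sites of the 3 genes that rose are shown so that their letters can be compared (RefSeq, build GRCm38.p6). Capitals mark the 6 letters GAGGAA, a core bound by Ets factors such as PU.1, on either strand (TTCCTC on the other strand). The Siglecf window is chr7:43351091-43351340 on the plus strand, that of Siglecg is chr7:43407989-43408238 on the plus strand, and that of Cd33 is chr7:43533172-43533421 on the minus strand.
Siglecf: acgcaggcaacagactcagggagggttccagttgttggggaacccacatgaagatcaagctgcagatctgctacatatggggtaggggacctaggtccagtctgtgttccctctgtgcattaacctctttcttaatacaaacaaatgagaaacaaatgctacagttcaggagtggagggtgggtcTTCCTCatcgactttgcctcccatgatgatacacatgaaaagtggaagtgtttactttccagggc
Siglecg: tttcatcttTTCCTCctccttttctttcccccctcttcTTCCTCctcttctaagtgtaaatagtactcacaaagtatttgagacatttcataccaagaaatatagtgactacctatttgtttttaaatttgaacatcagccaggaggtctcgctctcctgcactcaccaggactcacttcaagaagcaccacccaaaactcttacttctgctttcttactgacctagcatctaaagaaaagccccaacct
Cd33: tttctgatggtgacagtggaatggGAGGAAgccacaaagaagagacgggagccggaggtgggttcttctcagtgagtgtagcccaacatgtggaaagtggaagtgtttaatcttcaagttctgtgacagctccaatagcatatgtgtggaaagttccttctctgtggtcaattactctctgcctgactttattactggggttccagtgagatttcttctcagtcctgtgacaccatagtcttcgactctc
GAGGAA occurred 1 time in the Siglecf window, 2 times in that of Siglecg and 1 time in that of Cd33. The Siglece window, of a gene that was not called, held it 3 times. Of the 3 annotated Mag windows, 2 overlap and share the same 1 copy. It is common, being held by 23.4% of 32536 promoter windows of this length. A second annotated start of Siglecg shifts its window past both copies and holds none. The motifs GATAA (known from binding sites of eosinophil lineage factors, in 22.5% of all windows), the palindromic STAT6 motif with 4 free bases at its centre (in 5.89%) and TTGCNNAA (a C/EBP form, in 9.57%) were searched on both strands and were not in these 3 windows, which says nothing of the factors.

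The Siglecf and Cd33 windows share a run of 16 identical letters in the same orientation, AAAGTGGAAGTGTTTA. It spans positions -27 to -12 from the Siglecf start and -157 to -142 from the Cd33 start. Those 2 windows were the only ones of 32536 to hold it on either strand. Among the 21 pairs of promoter windows from the 7 Siglec genes with an entry, the next longest shared run had 10 letters. The run was noticed after the values were seen and is given as a description.

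Genes that make, modify or read sialic acid were mostly not called, with 6 of 64 measured members past the test, against 6.45% of all genes called in either direction. Casd1, which adds O-acetyl groups to sialic acids, rose most, to 10.55, 10.37 and 10.34 in OVA 1 to 3, against 8.98, 8.91, 9.20 and 9.06 in saline 1 to 4. The lowest OVA library was well above the highest saline one, and the difference was 1.38 (SE 0.11, limma adjusted p = 0.000158). Siae, the esterase that removes such groups, differed by 0.19 (limma adjusted p = 0.357). Thus 1 of 5 genes for sialic acid removal or O-acetylation was higher and 0 lower, against 5.28% and 1.17% of all genes. The median difference of these 5 was -0.13, against -0.07 for all genes.

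Of 20 sialyltransferases, which add the sugar that Siglecs bind, 0 were higher and 2 lower, against 5.28% and 1.17% of all genes. Their median difference was -0.13. St3gal5, the ganglioside GM3 synthase, fell to 6.33, 6.77 and 6.53 in OVA 1 to 3, against 7.85, 7.95, 8.47 and 7.97 in saline 1 to 4. No OVA library reached the saline range, and the difference was -1.52 (SE 0.17, limma adjusted p = 0.00104). St3gal6, which caps galactose with sialic acid in an alpha linkage used by selectin ligands, fell by 0.85 (SE 0.20, limma adjusted p = 0.0381). The St3gal6 call held in 8 of 17 alternatives and was lost without OVA 1 (adjusted p = 0.134), OVA 2 (0.174), saline 1 (0.0559), saline 3 (0.0797), saline 4 (0.0524) or both saline 3 and 4 (0.0621), and with median centring (0.0839), all probe sets (0.0614) or ordinary variance (0.195). St3gal1 differed by -0.51, St3gal4 by 0.37 and St6gal1, which makes the preferred ligand of CD22, by 0.06 (limma adjusted p = 0.098, 0.374 and 0.803).

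Among 8 genes of sialic acid supply and breakdown, 1 was higher and 0 lower, against 5.28% and 1.17% of all genes. Their median difference was 0.17. Npl, the lyase that splits sialic acid, rose by 0.70 (SE 0.17, limma adjusted p = 0.0457). Its levels were 6.76, 6.72 and 6.89 in OVA 1 to 3, against 6.07, 6.11, 6.51 and 5.68 in saline 1 to 4. All lay under the upper quartile of the negative controls, and in saline 4 Npl was under their median. Npl was called in 8 of 17 alternatives. It was not called without OVA 1 (adjusted p = 0.12), OVA 2 (0.134), OVA 3 (0.201), saline 1 (0.104), saline 2 (0.0738) or both saline 1 and 2 (0.122), nor with median centring (0.0526), all probe sets (0.07) or ordinary variance (0.196). Cmas, which activates sialic acid, differed by -0.45 and Gne, which starts its synthesis, by 0.03. None of 6 carbohydrate sulfotransferases was called (median difference -0.20), with Chst3 at -0.29 and Chst7 at -0.24. All 6 lay under the upper quartile of the negative controls in every library, and Chst7 under their median. None of 9 glycoproteins that can carry ligands was called either (median difference 0.02). Selplg, the P-selectin ligand, differed by 0.42 (limma adjusted p = 0.255) and was called with saline 3 and 4 left out (0.03). Spn (CD43) differed by -0.41 (limma adjusted p = 0.188) and was called in 3 of 17 alternatives, quantile normalized again (0.0234), with array weights (0.0355) and without saline 2 (0.048). Muc4 and Muc5b, mucins described as Siglec-F ligands of the mouse airway, differed by -0.22 and 0.02. Both lay under the upper quartile of the negative controls in every library.

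In the signalling list, 1 of 16 genes was higher and 1 lower, against 5.28% and 1.17% of all genes. The median difference of the list was 0.03. Ptpn6, which encodes SHP-1, read 10.58, 10.71 and 10.54 in OVA 1 to 3, against 10.63, 9.93, 10.81 and 10.69 in saline 1 to 4. Its groups overlap, and saline 2 was lowest here as it was for Siglece. Ptpn11 (SHP-2) differed by 0.35, the lipid phosphatase Inpp5d by 0.38 and Tyrobp by 0.01 (limma adjusted p = 0.204, 0.151 and 0.964). The ubiquitin ligase Cbl rose by 0.53 (SE 0.12, limma adjusted p = 0.0316), and the Src family kinase Fyn fell by 0.97 (SE 0.22, limma adjusted p = 0.0321). Each was called in 10 of 17 alternatives. Cbl was not called without OVA 1 (adjusted p = 0.0962), OVA 2 (0.125), OVA 3 (0.13), saline 1 (0.068) or both saline 1 and 2 (0.0703), nor with trend and robust moderation (0.0631) or ordinary variance (0.113). Fyn was not called without OVA 1 (0.109), OVA 2 (0.132), OVA 3 (0.101), saline 1 (0.0534) or saline 2 (0.0626), nor with all probe sets (0.053) or ordinary variance (0.187). The levels of Fyn were 7.09, 7.07 and 7.30 in OVA 1 to 3, and its saline libraries were at 8.64 and 8.38 in saline 1 and 2 and at 7.71 and 7.77 in saline 3 and 4.

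**Figure D3:**
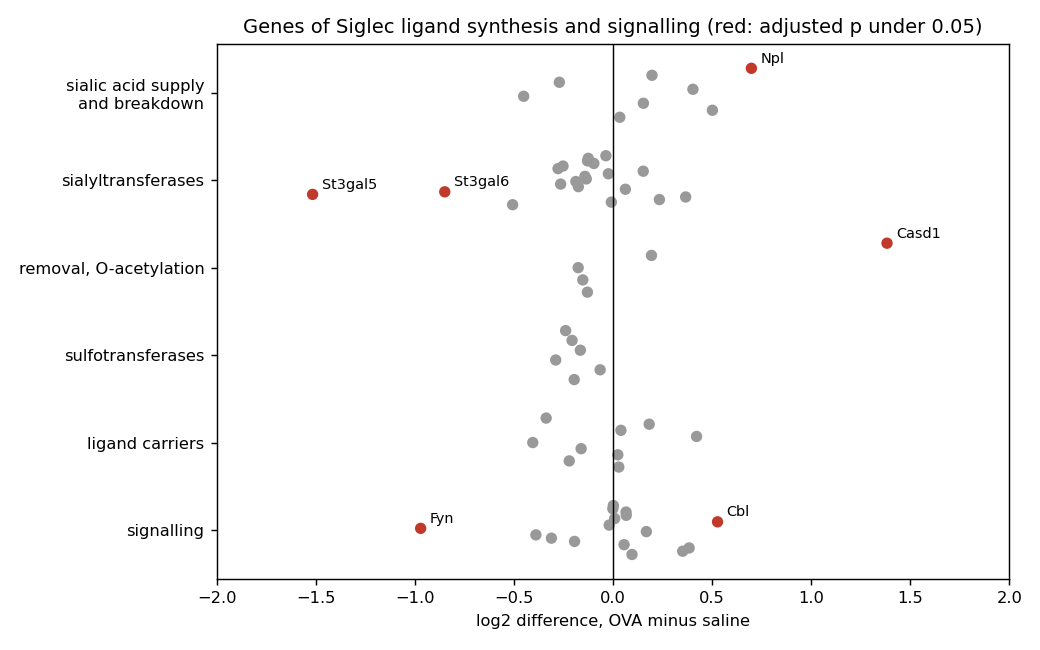
Log2 differences, OVA minus saline, of the measured genes of 6 lists on Siglec ligand synthesis and signalling (1 point a gene; red and named: limma adjusted p under 0.05). Casd1, Npl and Cbl lie to the right of 0, and St3gal5, St3gal6 and Fyn to the left.

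Because Siglecs mark several cell types, the marker levels of those cells are given beside them. The counts of called markers stand against 5.28% of all genes called higher and 1.17% called lower. Siglecf and Siglec1 are also genes of alveolar macrophages, of whose 14 measured markers 7 were higher in OVA and 0 lower. The mean level of that list was 7.70 to 8.09 in OVA libraries and 6.25 to 6.60 in saline libraries, so it too was higher in OVA. Within OVA it was highest in OVA 1, where Siglecf was lowest, and lowest in OVA 2, where Siglecf was highest. Within saline both were lowest in saline 2, which was also the lowest saline library for Ptpn6 and the highest for Cd33. The part of these cells in the rise of Siglecf was not tested. The median difference of the list was 0.64, and Chil3, Car4 and Itgax rose by 6.20, 5.36 and 2.07. Fabp4 and Mertk, however, were under the negative control median in all 7 libraries, and the scavenger receptor Marco read 6.11, 5.94 and 5.69 in OVA 1 to 3, against 5.96, 6.37, 5.95 and 6.13 in saline 1 to 4. Some eosinophil markers moved as well, with 4 of 10 higher (Epx, Prg2, Cebpe and Il1rl1) and 0 lower. The list had a median difference of 0.23 and a mean level of 10.31 to 10.55 in OVA and 9.78 to 10.11 in saline. Il1rl1, the IL-33 receptor, was called in 7 of 17 alternatives, while Epx was called in 17 and Prg2 and Cebpe in 16. The other eosinophil markers were not called and went both ways. Prg3 differed by -0.57 (limma adjusted p = 0.128), Il5ra by -0.35 and Ccr3 by -0.135. Alox15, Csf2rb and Gata1 differed by 0.33, 0.14 and 0.11. Prg3 lay wholly below saline in OVA, as 8.63% of all genes did.

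Siglecg and Cd22 are B cell genes, and 0 of 11 measured B cell markers were called (median difference -0.145). For so few genes that count is near the 6.45% of all genes called in either direction. The mean level of the list was 6.41 to 6.48 in OVA and 6.50 to 6.57 in saline, so it was slightly lower in every OVA library than in any saline library. Ms4a1 (CD20) and Cr2 were under the negative control median in all 7 libraries. Cd37 was bright, at 10.46 to 11.18, and differed by -0.27, and Cd79a differed by 0.37 (limma adjusted p = 0.392 and 0.306). For Cd33 and Siglece, the neutrophil list had 3 of 10 measured markers higher (Ltf, Ngp and Lcn2) and a median difference of -0.04, with mean levels of 7.70 to 8.16 in OVA and 7.49 to 7.82 in saline. Ngp was called in 16 of 17 alternatives, Ltf in 8 and Lcn2 in 6. S100a8, Mmp8, Camp and Elane differed by -0.19, -0.26, -0.15 and -0.30, Retnlg by -0.07, Mpo by -0.0025 and S100a9 by 0.61. S100a8 varied widely within each group, at 7.46, 7.88 and 9.70 in OVA 1 to 3, against 7.38, 7.09, 9.97 and 9.71 in saline 1 to 4. S100a9 was likewise highest in OVA 3 among OVA libraries, and higher in saline 3 and 4 than in saline 1 and 2. Of 8 monocyte markers 1, Fn1, was higher, by 2.33, and the median difference of the list was 0.04, with mean levels of 7.97 to 8.26 in OVA and 7.53 to 7.91 in saline. The part of these cells in the rise of Cd33 was not tested. None of 10 plasmacytoid dendritic cell, 9 mast cell and basophil, 8 T cell or 7 myelin markers was called. The T cell marker Cd3d, however, differed by -1.14 (limma adjusted p = 0.0648). It read 7.71, 8.01 and 8.48 in OVA 1 to 3, against 8.51, 8.87, 9.80 and 9.65 in saline 1 to 4. The other T cell markers differed by -0.23 to 0.16.

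**Figure D4:**
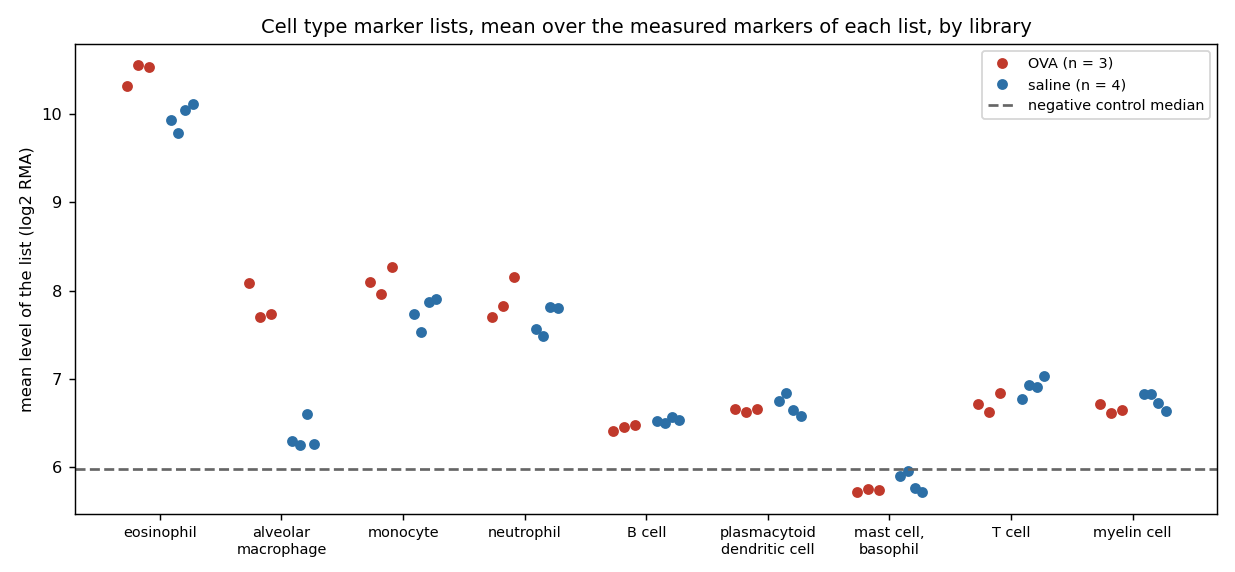
Mean level of each cell type marker list (log2 RMA, mean over its measured markers) in the 3 OVA and 4 saline libraries; the dashed line is the mean of the negative control medians. OVA points lie above all saline points for the eosinophil, alveolar macrophage and monocyte lists. Only 1 of 8 monocyte markers was called, however, and the median difference of that list was 0.04. For the B cell list the OVA points lie below all saline points, at 6.41 to 6.48 against 6.50 to 6.57, and 0 of 11 markers were called.

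The patterns nearest to those of the 3 called genes were found among 12708 genes brighter than the negative controls, as the root mean square difference over the 7 libraries after centring each gene on its mean. Nearest to Siglecf were Tapt1 (0.06), Nsd2, Rgs10, Anp32b and Lrp8 (0.09), whose log2 differences between groups were 0.74 to 0.90. Nearest to Siglecg were Zfp429 (0.10), Il4ra, Rfwd3, Ffar2 and Lrch1 (0.13), with differences of 0.91 to 1.14. Il4ra is the receptor chain shared by IL-4 and IL-13, and Ffar2 a receptor for short-chain fatty acids. Around Cd33 the fit was looser, with Uchl4 at 0.13 and Ruvbl2, Kdm3a, Serf1 and Gadd45a at up to 0.18, and differences of 0.65 to 0.94. Likeness over 7 libraries in 2 groups is a description and says nothing of shared control.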

How the data were processed

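The authors deposited log2 expression values made by RMA, per the submitters' processing notes; RMA corrects background, quantile normalizes the arrays and gives 1 value a probe set. No RMA version is named in the sources used here. Per the file headers, the annotated table is from the mouse gene 1.0 ST array. Its 7 value columns match no sample label and were not used; each equals 1 column of the value table within 0.005, in another order. Values came from the table with columns named by sample, given to 0.01 as deposited.

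Probe sets were named by accession (16887), symbol (1299) or synonym (676) in a RefSeq table (GRCm38.p6), or kept the array symbol (982). For 866 genes with several probe sets the one with the highest mean was taken. Groups were compared with limma 3.58.1 (R 4.3.3; lmFit, eBayes, group as the only term, two-sided, Benjamini-Hochberg over 18226 genes). Siglece's RefSeq probe set, not the highest, was read from the fit of 29011 non-control probe sets. The test was checked on simulated data. The number of arrays limits precision.

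The members and lists were chosen with earlier results of these data known. Named are all members, called genes of the other lists (the 2 largest differences where none was called), further list genes chosen after their values were seen, and the 5 genes nearest in pattern to each called member. Alternatives were normalization, probe set choice, a filter on dim genes, array weights, moderation, the replicate number as a block and libraries left out; the repeated quantile normalization was widened from the 18226 genes to all 35557 probe sets after its first values were seen. No library pair looked like a repeat: the SD of the difference within a group was 0.22 to 0.45.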

Additional observations from a re-analysis of the deposited data

Results flagged for a closer look

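Siglecg in saline 4 stood apart from the other saline libraries. It read 8.79 there, against 8.25, 8.24 and 8.25 in saline 1 to 3, a gap that exceeds Dixon's 95% limit for 4 values. Chance marks about 1 in 20 such groups, and 9 probe sets were examined in saline.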

How the results depend on the processing

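Siglecf was called higher in all 17 alternatives and Siglecg in 16, with differences of 0.72 to 0.89 and 0.91 to 1.19, while Cd33 was called in 11. The count of Siglec genes called, 3 as reported, was 1 with ordinary variance, 2 when quantile normalized again, and ran from 2 to 3 with 1 library left out. Leaving out 1 library gave 367 to 1218 genes higher and 68 to 267 lower, against 962 and 213 with all; without OVA 1, 2 or 3 the higher genes were 581, 431 and 367 and the lower ones 71, 68 and 86, and without saline 1 the lower genes were 141. Genes higher and lower numbered 1652 and 680 with array weights, 243 and 40 with ordinary variance, and 2188 and 990 with saline 3 and 4 left out. Genes lower numbered 431 after a second quantile normalization, 118 after median centring and 406 with saline 1 and 2 left out; fewer libraries or error degrees of freedom enter some of these fits, and otherwise the cause was not tested. The small uncalled differences of Siglech and Cd22 changed sign in 6 alternatives each. Siglech was at -0.0072 with array weights, -0.0533 with the replicate block and -0.025 without saline 3 and 4, and ran from -0.0533 to 0.10 with 1 library left out, below 0 without OVA 1 (-0.0225), saline 1 (-0.0233) or saline 4 (-0.0533). Cd22 was at -0.17 with array weights, -0.02 with the replicate block and -0.0267 without saline 1 and 2, and ran from -0.0875 to 0.1275 with 1 library left out, below 0 without OVA 3 (-0.0875), saline 1 (-0.0133) or saline 4 (-0.02). With the replicate number as a block, 1361 genes were higher and 318 lower, and 3 Siglec genes were called. Deviations of libraries with the same number correlated at 0.27, -0.14 and 0.24 across genes, so the numbers were not taken to pair libraries. OVA 1, 2 and 3 correlated best with saline 2, 4 and 4. The deviations of OVA 1 correlated at 0.27 and 0.45 with saline 1 and 2, and at -0.30 and -0.48 with saline 3 and 4. For OVA 3 these values were -0.26 and -0.36, and 0.24 and 0.40. Those of OVA 2 lay between -0.14 and 0.10. The main fit has no term for this pattern, and its source was not tested. The filter on dim genes does not apply to the Siglece RefSeq probe set, which was read over all probe sets. Levels near the negative controls limit what can be said of Siglec1, Cd22, Siglech and Mag, and of Npl, Muc4, Muc5b and the sulfotransferases.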
